A study of Mus musculus with 4 samples.

Results

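Csk and 3 Src-family tyrosine kinases, Lyn, Fgr and Lck, are described here by N6-methyladenosine (m6A), as mapped to single nucleotides of their transcripts. This mark is the most common internal modification of messenger RNA. Whether each called site, at or near an annotated start or elsewhere, is internal m6A was not tested. Every called site whose gene name in the deposited tables was Csk, Lyn, Fgr or Lck was taken, which gave 31 of 45668 sites in mouse 1 and 27 of 47747 in mouse 2, or 32 different nucleotides. The 4 genes were chosen with their folds known, so their values are a description and carry no test. The cells were macrophages grown from the bone marrow of 2 wild-type (WT) mice and kept for 3 h with lipopolysaccharide (LPS), a bacterial outer membrane component that activates macrophages, so no resting or mutant cells were compared. Each mouse gave 1 immunoprecipitated (IP) library, made with an antibody against m6A, and 1 input library, 4 libraries in all. The labels state neither strain, age nor sex, and leave unexplained the abbreviation NTC in the names of the tables. Each site is 1 nucleotide on 1 strand of the mm10 assembly with the authors' score and the authors' fold, the number of read starts in the IP relative to the input of the animal. Read numbers are not in the tables, so depth is unknown and the fold of a site has no error other than the spread between the animals.

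Src-family kinases sit at the inner face of the plasma membrane and phosphorylate tyrosines on immune receptors and their adaptors. They are held inactive when a tyrosine in their C-terminal tail is phosphorylated, and Csk is the kinase that places that phosphate, while phosphatases such as CD45 remove it. Lyn and Fgr are well known in myeloid cells, where they act below Fc receptors and integrins, and Lyn also acts in inhibition through receptors that recruit phosphatases. Lck is best known in T cells, where it starts signalling from the antigen receptor.

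The cell type was checked first with marker genes. Of 12 macrophage genes, such as Csf1r, Spi1 and Cd14, all had called sites. A site enriched in both animals was carried by 11 of them, against 86.9% of all genes called in both animals. Itgam was the exception, with folds of 19.1 in mouse 1 and 6.92 in mouse 2. This count is near the share over all genes, so by itself it does not identify the cells. Of 13 genes of T cells and NK cells, among them Cd3e, Cd4, Cd8a and Zap70, 12 had no called site in either animal, and Cd247 had 1 site in mouse 2 below the limit. Of 7 B cell genes 6 had no called site, and Cd79b carried 1 shared enriched site. Of 11 neutrophil and mast cell genes 5 had no called site, and the other 6 each had a shared enriched site, with 8 such sites in all. Of 6 dendritic cell genes 3 had no called site, 2 had a shared enriched site, and Ccr7 had 1 site in mouse 2 below the limit. The share of all genes without a called site was not measured, so these counts do not separate the cell types. A site can be missing because the transcript is scarce or because it is not methylated, and the tables cannot separate these. In such bulk samples fewer cells of a type and less RNA per cell cannot be told apart.

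Bases around a site could be read where it lay in a RefSeq promoter window of GRCm38.p6 (250 bases before to 50 after an annotated start), which shares its coordinates with mm10. Of the 4 genes only Csk had called sites inside such a window, and its stretch is shown with those of 3 genes of the same pathway that have sites there: Fyn, another Src-family kinase, Btk, a kinase downstream of these receptors, and Fcer1g, the signalling chain of Fc receptors. Capitals mark called sites in either animal, and all stretches run 5′ to 3′ on the strand of the transcript.
Csk: aggatccgggccgcgcttcctctcAccAgg
Fyn: ggagcagcccgagcAtcAgcgagAgtAgct
Btk: ggtggggtttgctcAgactgtccttcctct
Fcer1g: aactgttcgtgggcAcagctgcgcAgttct
The stretches lie at chr9:57645604-57645633 on the minus strand (Csk), chr10:39369772-39369801 on the plus strand (Fyn), chrX:134583125-134583154 on the minus strand (Btk) and chr1:171234300-171234329 on the minus strand (Fcer1g). Each capital is an A, and so was the called base at all 5009 sites of mouse 1 and all 5221 sites of mouse 2 that fell in a window. Whether the calling allowed any other base is not stated, so nothing is read from this. The letters GAC, with the site at their A and on the site's own strand, were at neither of the 2 Csk sites shown. Over all window sites with enough flanking bases GAC was found at 2.53% in mouse 1 and 2.82% in mouse 2, and over all A of the same windows at 5.38%. The longer GGACT was found at 1.08% and 1.14% of those sites and 0.449% of all A, and GGAC at 1.65% and 1.88% of sites and 1.66% of all A. The sites in the 3′ UTRs lie outside these windows, so their bases are not shown.

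Csk held the strongest single site of the 4 genes, and its 3′ UTR sites had nearly the same fold in both animals. The gene spans positions 57626646 to 57653631 of chromosome 9 in RefSeq and is read from the minus strand. At position 57627229, in the 3′ UTR and 583 bases before the end of the gene, the fold was 383 in mouse 1 and 419.8 in mouse 2, a mean log2 fold of 8.65 ± 0.09 (SD, n = 2). Only 6 bases upstream, at 57627235, the fold was 71.2 in mouse 1 and 87.6 in mouse 2. The last 3′ UTR site, at 57627132, had folds of 99.6 and 103. All 3 were far above the limit of 8 (log2 fold 3) at which a site was called enriched, in each animal.

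The first of these Csk sites was high among all genes as well. Ordered by the mean log2 fold of the strongest site called in both animals, Csk was number 8 of 7608 genes. This order is what brought the gene into the description and supports nothing further. A constant was taken for each table as the number that, dividing the folds, left the most of them whole (1.0028 in mouse 1, 0.9629 in mouse 2). It did so for 62.1% of folds in mouse 1 and 62.0% in mouse 2. Divided by this constant, the fold of the Csk site was exactly 382 in mouse 1 and 436 in mouse 2 within 1e-06, as a ratio with a denominator of 1. Such a ratio does not give the number of reads, since a reduced ratio can hide larger numbers. The score, which does not rank sites as the fold does, was 126.7 at this site and 126.1 at its neighbour 6 bases upstream in mouse 1, and 133 and 138 in mouse 2. At nearly equal score the downstream site had 5.38 times the fold of the upstream site in mouse 1 and 4.79 times in mouse 2.

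The 5′ UTR of Csk had weaker sites, close together and close to the limit. At 57645609, 44 bases after the second RefSeq start of the gene and the first capital of the stretch shown above, the fold was 11.03 in mouse 1, and no site was called there in mouse 2. At 57645606, the second capital, the fold was 8.52 in mouse 1 and 6.26 in mouse 2, so this site passed the limit in mouse 1 alone. At 57645586, which lies 67 bases after that start and outside the window, the fold was 13.4 in mouse 1 and 13.8 in mouse 2. The last was thus the only 5′ UTR site of Csk that was enriched in both animals. No site was called in the coding sequence of Csk in either animal.

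**Figure D1:**
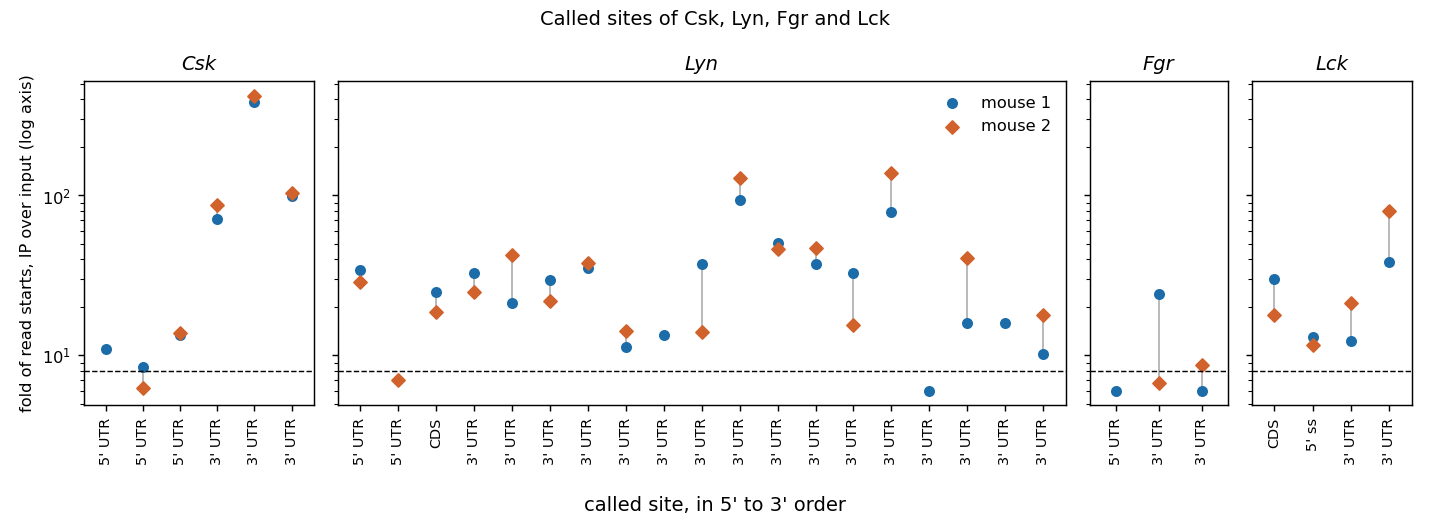
Fold of read starts, IP over input (log axis), at every called site of Csk, Lyn, Fgr and Lck in 5′ to 3′ order, with the annotated position below each site (5′ ss is the 5′ splice site). Circles are mouse 1, diamonds mouse 2, a grey line joins a site called in both, and the dashed line is the limit of 8. The Csk site at 383 and 419.8 stands above all others, and the Fgr sites lie on both sides of the limit.

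Lyn had more sites than Csk, and none with a fold as high as that of the strongest Csk site. The gene covers positions 3678068 to 3791612 of chromosome 4 on the plus strand. It had 18 called sites in mouse 1 and 16 in mouse 2, of which 15 were called in both, and these 15 were enriched in both. Of the 7827 genes called in both animals, 209 (2.67%) had more shared enriched sites, and the median gene had 2. The folds of the Lyn sites ran from 6.02 to 93.4 in mouse 1 and from 7.02 to 139 in mouse 2, with medians of 31.2 and 27.0. Over all called sites the medians were 15.04 and 14.4. Transcript level and length set how many sites can be called, and their part in this number was not tested.

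Most Lyn sites formed a run in the 3′ UTR. The 16 sites annotated there lay between positions 3790044 and 3790890, a span of 846 bases, with a median gap of 56 bases and gaps from 5 to 137. In 13 of the 16 the site was enriched in both animals. The strongest by mean log2 fold, at 3790445, had folds of 93.4 in mouse 1 and 128 in mouse 2, a mean log2 fold of 6.77 ± 0.32 (SD, n = 2), which was number 409 of the 7608 genes. At 3790548 the fold was 78.6 in mouse 1 and 139 in mouse 2. At 3790453, 8 bases after the strongest, it was 50.3 and 46.1, and at 3790481 it was 37.1 and 47.2. In both animals the 2 highest folds of the run were those at 3790445 and 3790548, near its middle.

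The remaining sites of the run were lower. Before the middle, the site at 3790044 had folds of 32.6 in mouse 1 and 25.04 in mouse 2. The site at 3790114 had 21.2 and 42.2, that at 3790179 had 29.8 and 22.03, and that at 3790193 had 35.3 and 38.03. At 3790225 the folds were 11.3 and 14.2, close to the limit in both animals. The site at 3790308 differed most in the direction of mouse 1, with 37.1 against 13.96, and the site at 3790537 followed with 32.8 against 15.5. At the far end the site at 3790720 differed most in the direction of mouse 2, with 15.9 against 40.7, and the last, at 3790890, had 10.2 and 17.8. Neighbouring sites of the run were therefore higher in different animals.

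**Figure D2:**
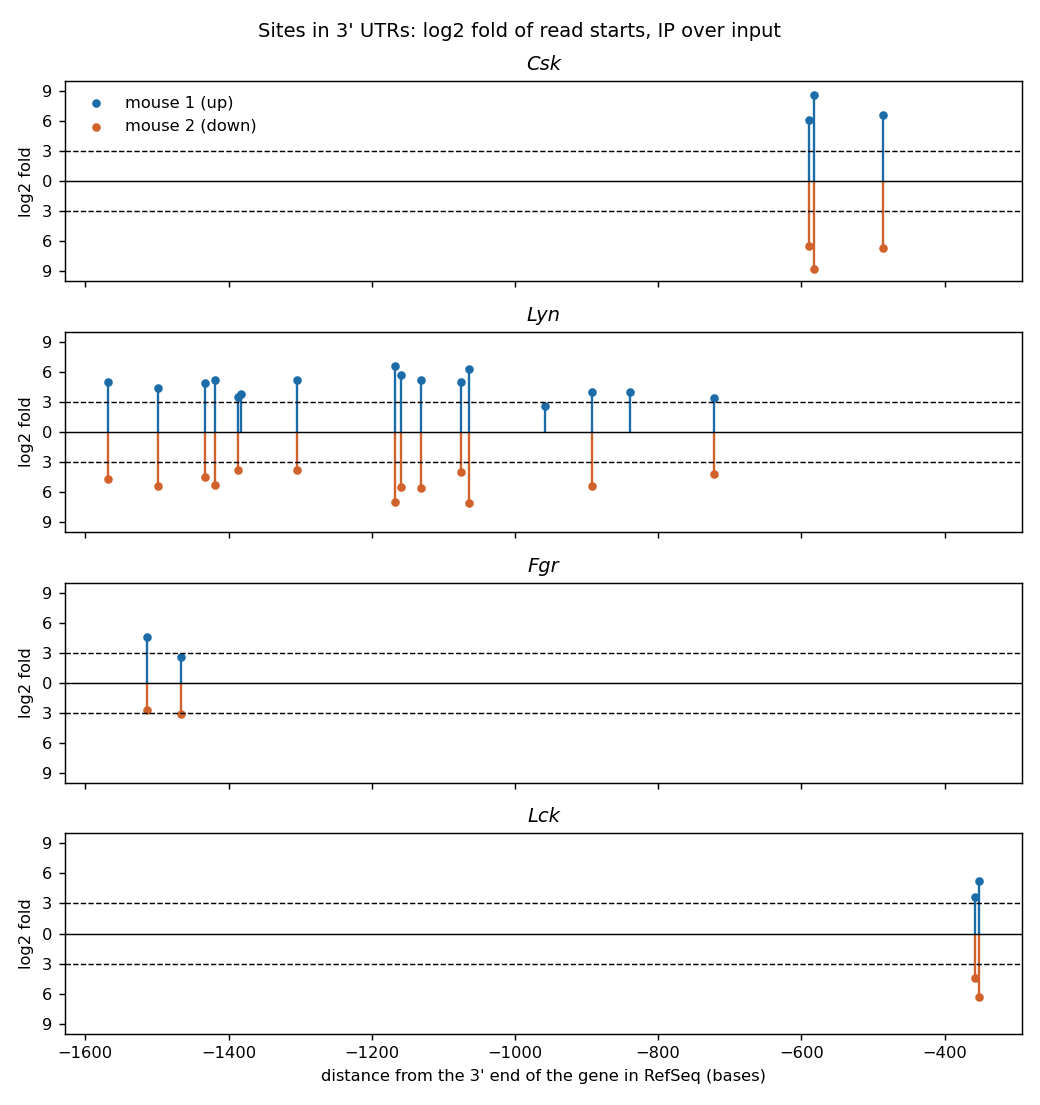
Log2 fold of read starts (IP over input) at the 3′ UTR sites of the 4 genes against the distance from the 3′ end of the gene in RefSeq, in bases, with mouse 1 drawn upward and mouse 2 downward. Dashed lines are the limit of log2 fold 3. Lyn has a run of 16 sites over 846 bases, Csk has 3 sites over 103 bases, Fgr has 2 sites 47 bases apart and Lck has 2 sites 6 bases apart.

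Some sites were called in a single animal. In the Lyn 3′ UTR mouse 1 alone had sites at 3790230 (fold 13.5, 5 bases from its neighbour), at 3790654 (6.02) and at 3790772 (16.05). Outside the 3′ UTR, Lyn had a 5′ UTR site at 3678124, 56 bases after the start of the gene, with folds of 34.3 and 28.9, and a site in coding sequence at 3789901 with folds of 24.8 and 18.6. A second 5′ UTR site, at 3678182, was called in mouse 2 alone with a fold of 7.02. Over the 4 genes, 5 nucleotides were called in mouse 1 only and 1 in mouse 2 only. Their scores ran from 10.3 to 43.9 and their folds from 6.02 to 16.05. Of the mouse 1 sites of the 4 genes 83.9% were called in mouse 2 as well, against 83.4% over all sites. For mouse 2 sites called in mouse 1 these shares were 96.3% and 79.8%.

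Score and fold ordered the Lyn sites differently. The site at 3790548, with the highest Lyn fold in mouse 2, had scores of 56.2 in mouse 1 and 58.4 in mouse 2. The site at 3790453, with less than its fold, had scores of 108.4 and 108.9. Between animals the scores kept their order more closely than the folds did: across the 13 Lyn 3′ UTR sites called in both, Spearman's rho was 0.87 for the score and 0.60 for the fold (Pearson's r 0.83 and, for log2 folds, 0.70). This is not particular to Lyn: over all 38082 sites called in both animals rho was 0.85 for the score and 0.70 for the fold. The Lyn points are sites of 1 transcript from the same libraries, so these correlations are a description. The exception in score was the site at 3790179, with 76.7 in mouse 1 and 23.95 in mouse 2 at folds of 29.8 and 22.03.

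**Figure D3:**
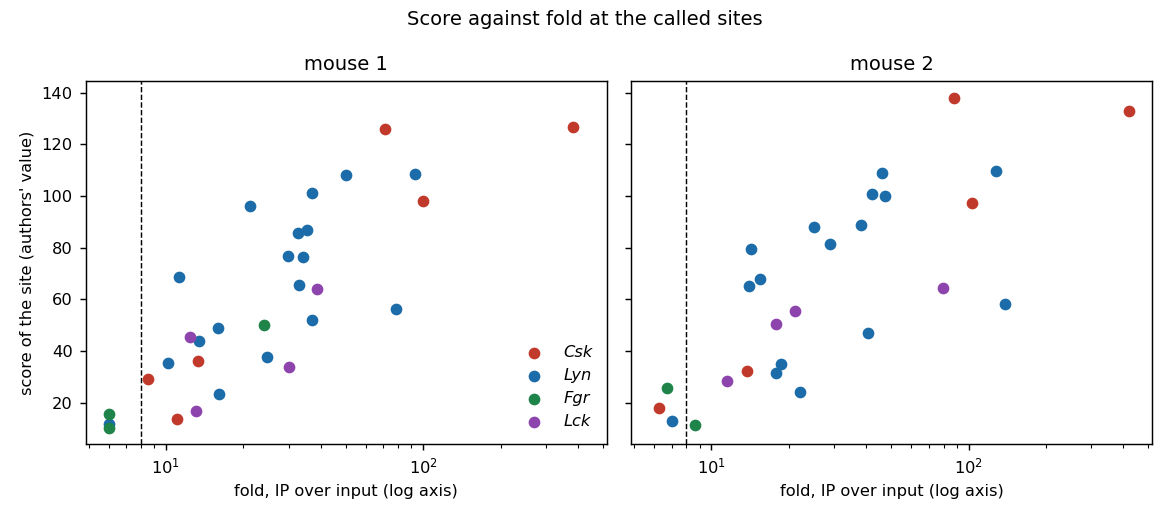
The authors' score of each called site against its fold of read starts, IP over input (log axis), in mouse 1 and mouse 2, coloured by gene, with the limit of 8 dashed. The pair of Csk sites with scores of 126.1 and 126.7 in mouse 1 has folds of 71.2 and 383, and the Lyn site with the highest fold in mouse 2 has a score of 58.4.

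Fgr, a myeloid relative of Lyn, had no site that was enriched in both animals. The gene spans positions 132974095 to 133001893 of chromosome 4 on the plus strand. Its 3′ UTR site at 133000379 had folds of 24.1 and 6.74 in mice 1 and 2, a log2 difference (mouse 2 minus mouse 1) of -1.84 that was the widest among the sites of the 4 genes. Its other 3′ UTR site, 47 bases downstream at 133000426, had 6.02 in mouse 1 and 8.67 in mouse 2. Each animal thus had 1 enriched Fgr site, and not the same one. A 5′ UTR site at 132974178, 83 bases after the gene start, was called in mouse 1 alone with a fold of 6.02. Divided by the constant of each table, the folds at 133000379 were 24 and 7 and those at 133000426 were 6 and 9. By its strongest shared site (mean log2 fold 3.67 ± 1.298, SD, n = 2) Fgr was number 6102 of 7608 genes.

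Lck carried 4 sites, and each was enriched in both animals. The gene spans positions 129548344 to 129573641 of chromosome 4 on the minus strand. Of the 7827 genes called in both animals, 2011 (25.7%) had more shared enriched sites. The strongest site, in the 3′ UTR at 129548696 and 352 bases before the gene end, had folds of 38.6 and 79.9 in mice 1 and 2. Its mean log2 fold was 5.80 ± 0.74 (SD, n = 2), which was number 1422 of 7608 genes. A site 6 bases upstream, at 129548702, had 12.4 and 21.2. Further upstream lay a site in coding sequence at 129555873 with folds of 30.1 and 17.8, and 39 bases after it a site annotated as a 5′ splice site, at 129555834, with 13.04 and 11.6. The score of this splice site was 16.7 in mouse 1, and with scores of at least 20 Lck had 3 shared enriched sites. The 3′ UTR sites were higher in mouse 2 and the other sites were higher in mouse 1. These sites stand beside T cell markers that were almost all without called sites: Cd3d, Cd3e, Cd3g, Cd2, Thy1 and Lat had none. Which cells the Lck RNA came from was not tested. No other gene of the RefSeq table covered any of the 32 nucleotides, and all 32 lay inside the gene named beside them.

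Taking the 4 genes together, 28 of 31 called sites passed the limit in mouse 1 (90.3%) and 24 of 27 in mouse 2 (88.9%), while over all genes 81.7% of called sites passed in mouse 1 and 79.1% in mouse 2. Of the 26 sites called in both animals 23 were enriched in both (88.5%), against 76.9% over all such sites. The genes were chosen on these folds, so nothing is read from the difference. Of the member sites of mouse 1, 83.9% were called in mouse 2, and of those of mouse 2, 96.3% were called in mouse 1. Over all sites these shares were 83.4% and 79.8%.

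By annotated position the 3′ UTR held 18 of the 23 shared enriched sites, or 78.3% (exact Clopper-Pearson 95% interval 56.3% to 92.5%, which covers counting error only). The intervals in this paragraph treat sites as independent, which sites of 1 transcript are not, so they serve as no test. The 3′ UTR held 37.3% of all shared enriched sites. Lyn supplied 13 of the 18, and without Lyn the share was 62.5% (5 of 8, 24.5% to 91.5%), so 1 gene carries most of this count. The 5′ UTR held 2 of the 23, coding sequence 2 and a 5′ splice site 1, while coding sequence held 42.4% of all shared enriched sites. The 3′ UTR sites of the 4 genes had a median fold of 32.6 in mouse 1 and 39.4 in mouse 2, and 3′ UTR sites of all genes had 17.4 and 17.3. Both tables gave every shared member site the same annotated position.

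All 6 sites in 5′ UTRs lay shortly after an annotated start. The distance to the nearest RefSeq start upstream ran from 44 to 114 bases, with a median of 61.5. Among 5′ UTR sites of all genes with a start in the tables, 74.7% of 9749 lay within 150 bases and the median distance was 52 bases. The 5′ UTR sites of the 4 genes were thus placed much as 5′ UTR sites in general. Csk and Lyn each had 1 that was enriched in both animals, and Fgr had none.

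Csk, Lyn and Lck each held a pair of sites within 10 bases of each other. Of the 23 shared enriched sites, 6 had such a neighbour (26.1%, against 12.3% of all shared enriched sites), while within 5 bases none had one (0 of 23, against 4.75% of all). These 6 sites formed 3 pairs, all in 3′ UTRs. In Csk the downstream site of the pair had the higher fold, as given above. In Lck the downstream site had 3.12 times the fold of the upstream one in mouse 1 and 3.77 times in mouse 2. In Lyn the order was the other way, with a downstream fold of 0.54 times the upstream fold in mouse 1 and 0.36 times in mouse 2. In each pair the stronger site was the same in both animals.

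Differences between the animals at the 26 shared member sites had no common direction. The fold was higher in mouse 2 at 15 sites and higher in mouse 1 at 11, with a median log2 difference (mouse 2 minus mouse 1) of 0.08, against 0.02 over all 38082 shared sites. The median absolute log2 difference was 0.44 at the member sites and 0.56 over all. It was smallest in Csk (0.13 over 5 sites), then 0.43 in Lyn (15 sites), 0.77 in Lck (4 sites) and 1.18 in Fgr (2 sites). By fold, the strongest sites of Csk, Lyn and Lck followed in that order in both animals. With the strongest site chosen by mean score instead, Csk (71.2 and 87.6) lay below Lyn (93.4 and 128) in both. The Fgr site lay below the Lck site in each animal, at 24.1 against 38.6 and at 6.74 against 79.9. Each site was picked for its fold, in genes chosen with their folds known, so this order is a description and supports nothing further.

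**Figure D4:**
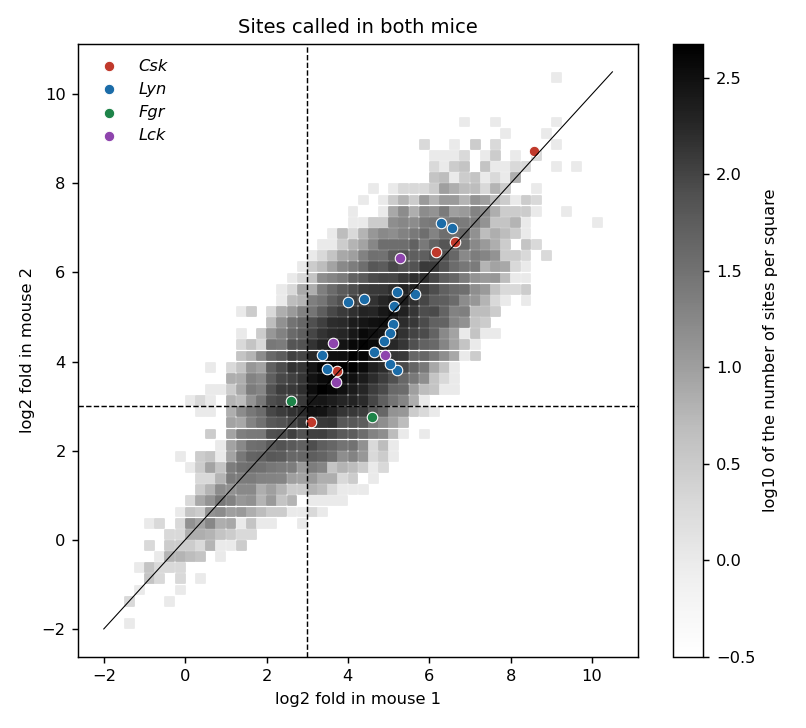
Log2 fold in mouse 1 against mouse 2 for all 38082 sites called in both animals (grey squares, darker where more sites fall, on a log10 scale) with the 26 sites of Csk, Lyn, Fgr and Lck in colour. Dashed lines are the limit of log2 fold 3 and the diagonal marks equal folds. The Csk 3′ UTR sites lie near the diagonal, and the Fgr sites lie on opposite sides of it.

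The wider pathway was described with a list of 48 other genes that act with Csk and Src-family kinases. Of these, 40 were called in both animals, and 39 of the 40 carried a shared enriched site (97.5%), against 86.9% of all 7827 genes. Their median was 4 shared enriched sites a gene, against 2 over all genes, and the median of the mean log2 fold of the strongest shared site was 4.87, against 4.65. The 3′ UTR held 54.8% of their 199 shared enriched sites and coding sequence 27.1%, against 37.3% and 42.4% of all shared enriched sites. The list was written with results of these data known, and the genes differ in transcript level and length, so these figures are a description.

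Of 5 other Src-family kinases described here, 2 had called sites and 3 had none. Src, the founding member, had 4 shared enriched sites, all in the 3′ UTR, of which the strongest had folds of 31.1 and 42.4. Fyn had 6, with its strongest in the 3′ UTR (23.1 and 26.5), and its first site, the first capital of the Fyn stretch shown above, had 22.6 and 19.3. The other 3 capitals of that stretch were called in both animals without passing the limit in both. No site was called for Yes1, Blk or Frk in either animal. Neither Src nor Fyn reached the number of shared enriched sites or the highest fold of Lyn.

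Most genes that set the activity of these kinases carried sites. Of 19 listed, 17 had called sites and all 17 had a shared enriched site, against 86.9% of all genes called in both animals, while Lime1 and Sla2 had no called site. The tyrosine phosphatase genes Ptpn12 (55.7 and 100.1, with 10 shared enriched sites), Ptpn11 (59.2 and 80.9, with 8) and Ptpn22 (58.2 and 48.1, with 6) had the highest mean log2 folds of the group. The site of the adaptor gene Dok2 picked by the same mean was higher than these in mouse 1 alone (65.5, with 38.03 in mouse 2). Other shared enriched sites of Ptpn12 (73.7) and Ptpn11 (72.2) were above that Dok2 site in mouse 1. Ptpn22 encodes a phosphatase that binds Csk, and its strongest site was annotated in a distal intron. Pag1, a membrane anchor that recruits Csk, had 8 shared enriched sites, with its strongest in the 5′ UTR at 44.1 and 36.6. Ptprc, which encodes CD45, had 2, with folds of 14.9 and 17.7 at the strongest. Matk, the closest relative of Csk, had 1 site, in the 3′ UTR, at 17.05 and 14.4, far below the strongest site of Csk in both animals.

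Inhibitory receptors that are phosphorylated by Src-family kinases, with the phosphatase Inpp5d, were called in both animals in 6 of 7 cases. Lilrb4a had no called site. All 6 had a shared enriched site, against 86.9% of all genes called in both animals. Sirpa, the receptor for the CD47 signal, led with 25 shared enriched sites, 16 of them in the 3′ UTR, and a strongest site at 175 in mouse 1 and 62.8 in mouse 2. Inpp5d, which encodes the lipid phosphatase SHIP1, had 8 (64.2 and 41.9), and Pirb had 5 (35.1 and 63.6). The strongest Sirpa site was higher in mouse 1 and the strongest Pirb site in mouse 2.

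Downstream of the kinases, 14 of 15 genes with called sites had a shared enriched site (93.3%), against 86.9% of all genes called in both animals. Lat2, an adaptor of myeloid and B cells, had the highest mean fold (91.2 and 329), followed by Syk, the kinase that binds phosphorylated receptor chains (94.5 and 239.8), and Ptk2b, the focal adhesion kinase relative Pyk2 (164 and 94.8). Syk had 23 shared enriched sites, 20 of them in the 3′ UTR, which like those of Lyn outnumbered its sites elsewhere. Pik3cd had 12 and Pik3ap1 had 7, with strongest sites at 105 and 134.8 and at 107 and 138. Btk had 2, and the one at the capital of the stretch shown above, at the RefSeq start itself, had 29.1 and 28.9. Fcer1g had 2, the capitals of its stretch, with 27.2 and 23.9 at the first and 18.4 and 18.3 at the second. Lcp2 had called sites and none enriched in both animals (11.03 and 4.57 at the strongest), and Cttn and Bcar1 had no called site. No gene of the list had a strongest shared site as high as that of Csk by mean log2 fold.

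**Figure D5:**
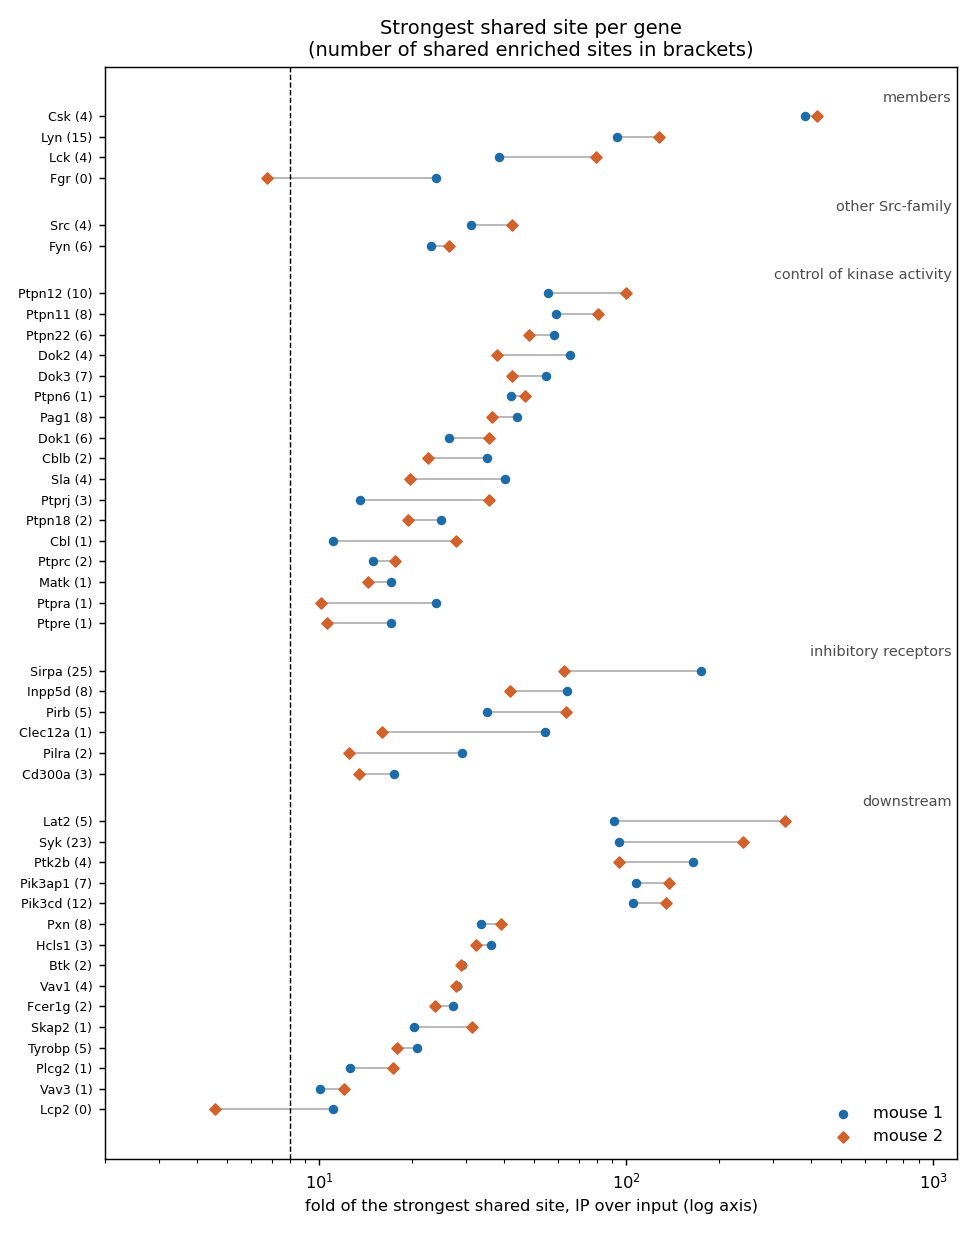
Fold of the strongest shared site (log axis) in mouse 1 (circles) and mouse 2 (diamonds) for Csk, Lyn, Lck and Fgr and for the 40 pathway genes called in both animals, by group, with the number of shared enriched sites in brackets and the limit of 8 dashed. Csk lies farthest right at 383 and 419.8, and Fgr and Lcp2 cross the limit between the animals.

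Genes with a pattern like that of each kinase were found among genes whose strongest shared site had the same annotated position and whose number of shared enriched sites differed by at most 1. Likeness was the mean absolute difference in log2 fold of the strongest shared site over the 2 animals. Closest to Csk was Clec5a, a myeloid lectin receptor, at a difference of 0.22 (332 and 359), and then Abcf1 at 0.75 and Sfxn1 at 0.87. Closest to Lyn were Cybc1 (0.22), Top3a (0.23) and Ralgds (0.30), each with 14 shared enriched sites. Closest to Lck were Fosl2 (0.05) and Slc12a4 (0.08). Closest to Fgr were Stx18 (0.06), Emc2 (0.07) and the predicted gene Gm29394 (0.11), none of which had a shared enriched site. Csk had 897 candidates, and only Clec5a came within 0.5 of it, whereas Lyn had 41 candidates.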

How the data were processed

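Per the submitters' processing notes, cutadapt 2.7, STAR 2.6.0c and UMI-tools 0.5.1 and the builds mm10 and hg38 were used. Which program called the sites, how it scored them and which annotation it used is not stated there. Poly(A) RNA was selected first, per the labels' protocols. The authors deposited 1 table per mouse, with a score above 10 for every listed site. The deposited fold is a ratio of read starts, IP over input, per the file headers. Depth is unknown, and no count model or p-value was used.

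Positions are 1-based interval ends. A site counted as enriched from a log2 fold of 3 upward and as shared at the same nucleotide and strand in both mice. Genes came from the authors' gene column, without joined names. The named genes were the 4 kinases, the pathway list (at least the 3 highest of each group and those with no enriched site) and the 3 genes most like each kinase. Some genes of the lists and of these rules are not reported here and were left out of the lists' counts. Members and lists were chosen with earlier results of these data known. Joins and merging were tested on simulated data. Alternatives covered the fold limit, table constants, score, overlap, merging and each mouse alone. Sequences are RefSeq's (GRCm38.p6; windows for 3 of the 4 genes). Python 3.11.15, pandas 2.3.3, NumPy 2.4.6, SciPy 1.17.1 and Matplotlib 3.10.9 were used.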

Additional observations from a re-analysis of the deposited data

How the results depend on the processing

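Of 87 alternative values, 71 stayed within 1.5 times the count or within the spread of the value. Counts and shares cannot change sign, and the median log2 difference between the mice stayed positive. At a log2 fold of at least 2, Fgr had 2 shared enriched sites, 94.5% of shared called sites and 94.97% of genes passed. At log2 fold 4, Lck had 2 shared enriched sites, and 42.2% of shared sites and 60.2% of genes passed. With scores of at least 20 these shares were 85.3% and 90.9%. When the strongest site was chosen by mean score, the mean log2 fold of Csk was 6.30, since its neighbour 6 bases away was then taken, and Csk then lay below Lyn (6.77). With each mouse alone, Fgr had 1 enriched site in either, and 79.1% to 81.7% of sites and 91.0% to 93.3% of genes were enriched. The highest Lyn log2 fold was then 6.55 in mouse 1 (at 3790445) and 7.12 in mouse 2 (at 3790548), at different nucleotides. The member share in 3′ UTRs ranged from 62.5% (without Lyn, added after seeing the data) to 81.8%. Dividing by the table constants, also added then, gave a median log2 difference of 0.14 between the mice at member sites. Sharing within 5 bases and merging changed no count of the 4 genes or of the pathway list. No paired analysis was possible because the results come from no test: IP and input of a mouse enter as 1 deposited fold. Without read numbers, a fold that rests on few input reads cannot be told from one that rests on many.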
